A study of Mus musculus with 6 samples.

Results

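The genes of MHC class II presentation were followed in penile tumors and normal penises of mice. They are 10 of the 24063 gene symbols in the count files, chosen by name: the chains H2-Aa, H2-Ab1 and H2-Eb1, the invariant chain Cd74, the peptide loading genes H2-DMa, H2-DMb1 and H2-DMb2, their regulators H2-Oa and H2-Ob, and the transactivator Ciita. Sequencing covered RNA of 3 SA penile tumors, taken at 5 months of age, and of 3 WT penises from mice of matched age. SA mice carried PB-Cre+ with Smad4L/L and ApcL/L, so that the tumor suppressors Smad4 and Apc were deleted together, and WT mice were C57BL/6. PB-Cre4 is driven by an androgen-responsive promoter and acts in androgen-responsive epithelial cells, so the deletion was directed at epithelium and not at the leukocytes of the tissue. The SA mice came from bred colonies whose strain background is not given in the sources used here, and no group carried Cre alone. Each group had 3 samples, and p-values measure only the spread between them.

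MHC class II molecules are heterodimers of an alpha and a beta chain that show peptides from the endosome to CD4+ T cells. The invariant chain Cd74 escorts them to the endosome and blocks the groove, H2-DM exchanges its last fragment for peptide, and H2-O restrains H2-DM. Dendritic cells, B cells and macrophages usually carry class II molecules, and many epithelial cells can make them after interferon gamma, through Ciita. C57BL/6 mice make no H2-E molecule on the cell surface because their alpha chain gene is not functional, although H2-Eb1 is transcribed.

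Expression is given as CPM, counts scaled to library size, after the TMM correction of library sizes in edgeR. A gene passed the test with an adjusted p under 0.01 in edgeR's quasi-likelihood test over 16336 genes. All 10 genes had enough counts to be tested, and 0 of them passed in either direction, where 37.6% of all tested genes did, 20.1% as higher and 17.5% as lower in SA. The median log2 fold change of the 10 genes was −0.12, beside 0.03 over all tested genes, and 6 of the 10 values were below 0. Scaling by library totals alone, which raised the median of all genes to 0.31, put 4 of these 6 values (H2-Ab1, H2-Eb1, H2-DMa and H2-DMb1) above 0 and none past the test, and it raised the share of higher genes among all calls from 53.4% to 74.4%. With the wider threshold of an adjusted p under 0.05, Ciita and H2-Oa were called higher in SA, 2 of 10 genes, where 53.4% of tested genes were called in either direction and 28.2% as higher. The unadjusted p was under 0.05 for the same 2 genes, and for 58.9% of all tested genes. Groups did not overlap for 1 member, Ciita, where 63.4% of tested genes had groups without overlap, 32.7% with all SA tumors above and 30.7% with all SA tumors below the WT penises. DESeq2 at an adjusted p under 0.01 called 1 member, Ciita. Its share over all genes is not given here, so this count has no background beside it. Over the listed pathway and marker genes DESeq2 called 40 higher and 28 lower, where edgeR called 27 and 23.

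These genes varied more between samples of a group than most. Their median standard error on the log2 scale was 0.379, against 0.159 over all tested genes, and 14.1% of tested genes had a larger one. At this precision the 95% interval of the log2 fold change excluded changes of 2 and beyond, in either direction, for 8 of the 10 genes, and lay within −1 and 1 for 1 gene, H2-DMa.

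**Figure D1:**
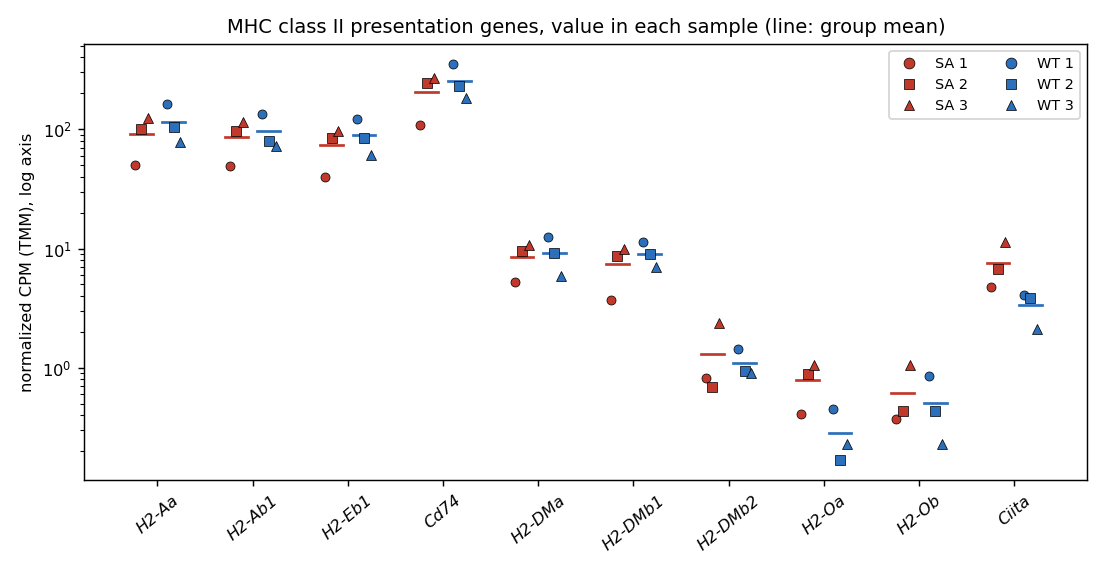
Normalized CPM on a log axis for each of the 10 genes, with a point for each of the 3 SA tumors and 3 WT penises and a line at the group mean. The ranges of the groups overlap for 9 genes, and for Ciita the SA tumors, at 4.79 to 11.3 CPM, lie above the WT penises, at 2.10 to 4.07 CPM.

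H2-Aa (NM_010378, minus strand, chr17:34282744-34287823) encodes the alpha chain of H2-A, the classical class II molecule of C57BL/6 mice. Its level was 49.98, 100.2 and 123 CPM in SA tumors 1, 2 and 3, and 162, 105 and 78.0 CPM in WT penises 1, 2 and 3. The highest sample was a WT penis and the lowest an SA tumor, and the groups overlapped. Means were 91.1 ± 37.4 CPM in SA and 115 ± 42.8 CPM in WT (SD, n = 3 each), and the log2 fold change was −0.33 (SE 0.387, edgeR adjusted p = 0.502).

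H2-Ab1 (NM_207105, chr17:34263227-34269418) encodes the beta chain that pairs with it. It stood at 49.0, 96.9 and 115 CPM in the SA tumors and at 135, 80.4 and 72.5 CPM in the WT penises. The same tumor and the same WT penis were again the lowest and the highest sample. The log2 fold change was −0.14 (SE 0.364, edgeR adjusted p = 0.766).

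H2-Eb1 (NM_010382, chr17:34305867-34316674), the beta chain of H2-E, gave 40.1, 84.8 and 95.9 CPM in SA and 123, 83.8 and 60.6 CPM in WT, with a log2 fold change of −0.27 (SE 0.378, edgeR adjusted p = 0.577). Here too the groups overlapped. The partner of H2-Eb1 is listed as the pseudogene H2-Ea-ps, with 1, 0 and 1 reads in SA and 0 reads in each WT penis. H2-Eb2, a related beta chain gene, had 4, 7 and 47 counts in SA and 1, 2 and 2 counts in WT, which left it below the filter on low counts.

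Cd74 (NM_001042605, chromosome 18) had the highest level of the group. It gave 109, 243 and 268 CPM in the SA tumors and 354, 232 and 183 CPM in the WT penises. As for the chains, SA 1 was lowest, WT 1 was highest and the other 4 samples lay between. Its log2 fold change was −0.31 (SE 0.381, edgeR adjusted p = 0.528).

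Per length of transcript, in the TPM values of the authors, the order of the 10 genes was the same in the mean of either group: Cd74, H2-Aa, H2-Ab1, H2-Eb1, H2-DMb1, H2-DMa, H2-DMb2, Ciita, H2-Oa and H2-Ob. Mean levels ran from 259 ± 108 TPM for Cd74 to 0.414 TPM for H2-Ob in SA, and from 245 ± 68.3 TPM to 0.254 TPM in WT (SD, n = 3 each). Neighbours in this order kept it in 6 of 6 samples, except H2-DMb1 over H2-DMa, H2-DMb2 over Ciita and H2-Oa over H2-Ob, which kept it in 5 of 6.

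The genes of peptide loading lay far lower. H2-DMa (NM_010386, chr17:34119693-34139101), the alpha chain of H2-DM, gave 5.28, 9.53 and 10.7 CPM in SA and 12.6, 9.21 and 5.88 CPM in WT. H2-DMb1 (NM_010387, chr17:34153191-34160229), a beta chain of H2-DM, gave 3.72, 8.61 and 9.998 CPM in SA and 11.3, 8.95 and 6.97 CPM in WT. Both genes followed the classical chains, with SA 1 lowest, WT 1 highest and overlapping groups. Their log2 fold changes were −0.11 (SE 0.329, edgeR adjusted p = 0.808) and −0.27 (SE 0.349, edgeR adjusted p = 0.544). The second beta chain gene, H2-DMb2 (NM_010388, chr17:34143229-34151553), gave 0.818, 0.695 and 2.36 CPM in SA and 1.45, 0.935 and 0.911 CPM in WT. Its highest value was that of SA 3 and its lowest that of SA 2. The log2 fold change was 0.32 (SE 0.501, edgeR adjusted p = 0.618), and it was −0.53 without SA 3. The sequences of H2-DMb1 and H2-DMb2 share 18.9% and 17.8% of their windows of 76 bases, the read length, with each other. A read within these stretches could not by itself be assigned to 1 of them. The study's methods name paired-end reads, and how far the mates place such reads was not examined. H2-DMa shares part of its span with Brd2.

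H2-O is the inhibitor of H2-DM and is known from B cells and some dendritic cells. H2-Oa (NM_008206, chr17:34092379-34095234) was covered by 11, 27 and 129 reads in SA and by 10, 5 and 5 reads in WT. That is 0.409, 0.894 and 1.05 CPM in SA and 0.452, 0.167 and 0.228 CPM in WT. The groups overlapped through 1 sample of each, since SA 1 lay below WT 1. Means were 0.783 ± 0.333 CPM and 0.282 ± 0.150 CPM (SD, n = 3 each). The log2 fold change was 1.55 with a 95% interval of 0.38 to 2.73 (edgeR adjusted p = 0.0317), which did not pass the test. Of the windows of 76 bases of H2-Oa, 17.1% also occur in BC051537. H2-Ob (NM_010389, chr17:34238905-34245908) gave 0.372, 0.430 and 1.05 CPM in SA and 0.859, 0.434 and 0.228 CPM in WT. Its groups overlapped over most of their range, with a log2 fold change of 0.41 (SE 0.567, edgeR adjusted p = 0.574) that was −0.32 without SA 3.

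Ciita (NM_001243760, chr16:10480014-10531064) encodes the transactivator that binds no DNA itself and switches on the class II genes, Cd74, H2-DM and H2-O. It gave 4.79, 6.69 and 11.3 CPM in the SA tumors and 4.07, 3.87 and 2.10 CPM in the WT penises. Every SA tumor lay above every WT penis. Means were 7.59 ± 3.34 CPM and 3.35 ± 1.09 CPM (SD, n = 3 each), which is a change of 1.19 on the log2 scale (SE 0.367, 95% interval 0.35 to 2.03), or 2.28-fold on the linear scale. The edgeR adjusted p was 0.0245, short of the threshold of 0.01. It came to 0.00287 with DESeq2, to 0.00954 with scaling by library totals alone and to 0.00684 without SA 1, and over all alternatives that test against no change it ran from 0.00287 to 0.0782. A test against a log2 fold change of 1, a stricter question, gave an edgeR adjusted p of 0.517. Reads of Ciita fit several transcripts nearly alike: the transcript used here exceeded NM_007575 by 4, 7 and 69 reads in SA and by 2, 1 and 1 reads in WT.

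**Figure D2:**
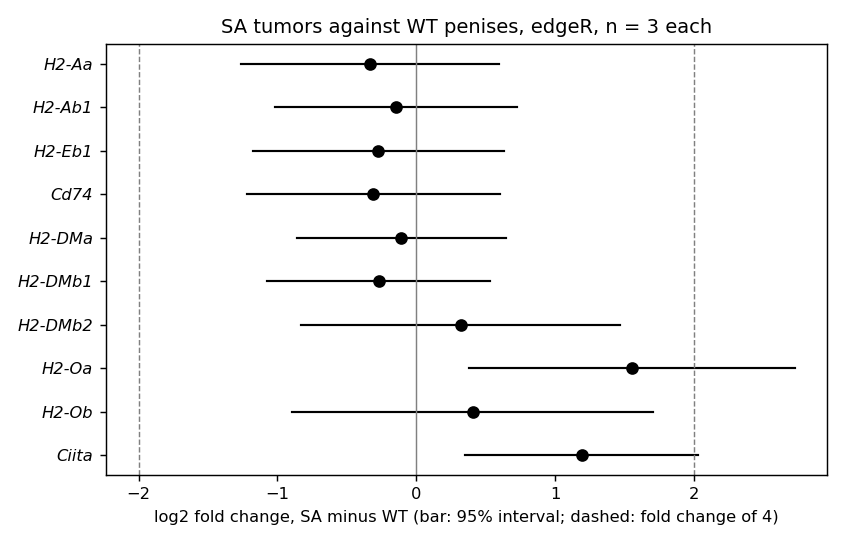
Log2 fold change of each gene, SA minus WT, as a point with its 95% interval from edgeR, and dashed lines at a 4-fold change in each direction. The intervals of Ciita (0.35 to 2.03) and H2-Oa (0.38 to 2.73) lie above 0, and the other 8 cover 0.

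A block of 6 genes varied together from sample to sample within a group. Among H2-Aa, H2-Ab1, H2-Eb1, Cd74, H2-DMa and H2-DMb1, the Pearson correlation of log2 CPM, centred within each group, ran from 0.93 to 1.00 over the 6 samples. These are descriptions, since the points share libraries and the centring leaves few free values. Ciita correlated with the block at 0.81 to 0.90, H2-Oa at 0.81 to 0.95, H2-Ob at 0.74 to 0.86 and H2-DMb2 at 0.56 to 0.64. H2-DMb2 rested on few reads, 22, 21 and 291 in SA and 32, 28 and 20 in WT. The part of counting error in its correlation was not tested. Over the 10 genes the mean deviation from the group mean was −0.69, 0.09 and 0.60 in the SA tumors and 0.53, −0.08 and −0.45 in the WT penises, in log2 CPM. SA 1 was the lowest tumor for 9 of the 10 genes and SA 3 the highest for all 10, and WT 1 was the highest WT penis for all 10. SA 3 was also sequenced 4.42 times as deeply as the median of the other samples.

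**Figure D3:**
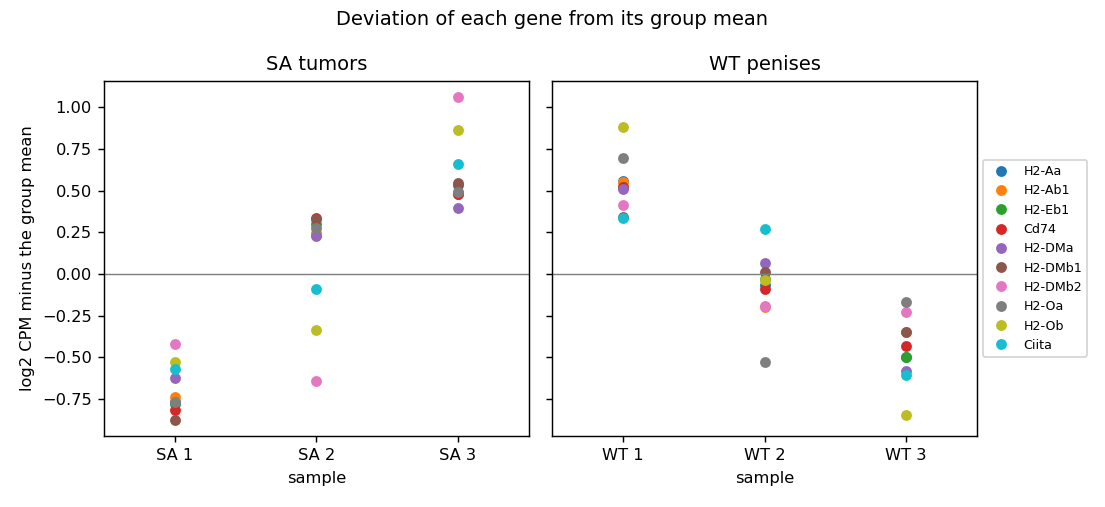
Deviation of log2 CPM from the group mean for each of the 10 genes, by sample, with SA tumors on the left and WT penises on the right. Points of a sample cluster, with means of −0.69 in SA 1, 0.60 in SA 3, 0.53 in WT 1 and −0.45 in WT 3.

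Some ratios between the genes varied far less than the genes did. The ratio of H2-Aa to H2-Eb1, in CPM, ran from 1.18 to 1.32 over the 6 samples, and that of Cd74 to H2-Aa from 2.18 to 2.42, whereas each of these genes varied 3.06- to 3.24-fold between its lowest and highest sample. Ratios within an alpha and beta pair varied more. That of H2-Aa to H2-Ab1 was 1.02, 1.03 and 1.08 in SA and 1.197, 1.31 and 1.08 in WT, a 1.28-fold range, with the SA tumors at the lower end. That of H2-DMa to H2-DMb1 ran from 0.843 to 1.42, a 1.68-fold range.

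Class II genes are known to share a promoter module that holds an X box and a Y box, to which the RFX complex and NF-Y bind and on which Ciita acts. Stretches are shown for each gene whose window held a Y box match, and these are not the 6 genes that varied together. Of that block, H2-Aa, H2-Eb1 and H2-DMb1 are shown, H2-Ab1 and Cd74 had no window, and the windows of H2-DMa held no match. H2-DMb2, H2-Oa and H2-Ob are shown and lie outside the block. A link between the letters and the shared variation was not tested. The RefSeq table of promoters (GRCm38.p6, 250 bases before to 50 bases after each start) had a window for 7 of the 10 genes, and none for H2-Ab1, Cd74 and Ciita. TGATTGG was searched on both strands as the Y box and AACNNATG, on both strands, as the X box, and these letters were chosen after the windows had been read. The stretches below are 60 bases each, 5′ to 3′ on the strand of the gene, with matches in capitals. Their positions are chr17:34287859-34287918 on the minus strand for H2-Aa, and on the plus strand chr17:34305761-34305820 for H2-Eb1, chr17:34153083-34153142 for H2-DMb1, chr17:34145112-34145171 for H2-DMb2, chr17:34092289-34092348 for H2-Oa and chr17:34238801-34238860 for H2-Ob.
H2-Aa: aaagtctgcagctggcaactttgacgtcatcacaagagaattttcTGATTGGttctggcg
H2-Eb1: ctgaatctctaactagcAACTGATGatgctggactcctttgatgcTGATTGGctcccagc
H2-DMb1: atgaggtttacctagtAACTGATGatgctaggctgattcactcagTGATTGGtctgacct
H2-DMb2: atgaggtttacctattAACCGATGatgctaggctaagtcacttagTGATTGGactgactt
H2-Oa: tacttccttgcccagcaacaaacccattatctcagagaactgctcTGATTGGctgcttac
H2-Ob: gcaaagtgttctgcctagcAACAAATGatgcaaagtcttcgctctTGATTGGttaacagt

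TGATTGG was found in 6 of the 7 genes with a window, all but H2-DMa, at 45 to 92 bases before the start used for the window. It was also in 7.82% of the 32851 windows of the table. The windows of H2-DMa, chr17:34122582-34122881 and chr17:34125268-34125567, lie inside the span given above, which begins at 34119693. That of H2-DMb2, chr17:34144999-34145298, lies inside its span too, which begins at 34143229. Bases before these span starts were not searched, so the lack of a match for H2-DMa holds for its windows only. AACNNATG was found in 4 of the 7 and in 8.86% of windows. The order of AACNNATG before TGATTGG, with their first bases 15 to 45 apart, occurred in H2-Eb1, H2-DMb1, H2-DMb2 and H2-Ob, at 26 to 29 bases, and in 0.0548% of windows. A match is a description of letters and no measured site. The 2 stretches of H2-DMb1 and H2-DMb2 are the same at 53 of 60 positions.

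Of the 10 genes, 8 lie within 224 kb of chromosome 17, from H2-Oa to H2-Eb1, and 5 other genes of the files lie among them. Of these 5, 2 passed the test, both lower in SA. They are Tap1 and Tap2, which encode the pump that carries peptides to class I molecules. Tap1 fell from 54.6 ± 9.08 CPM in WT to 25.5 ± 6.60 CPM in SA (SD, n = 3 each), and its log2 fold change was −1.09 (edgeR adjusted p = 0.00201), and Tap2 gave −0.91 (edgeR adjusted p = 0.00691). The proteasome genes Psmb9 and Psmb8, at −0.60 and 0.01, and Brd2, at −0.24, did not pass. Among all 14 genes listed for class I presentation, 3 fell (Tap1, Tap2 and Tapbp, at −0.60), 0 rose and 11 did not pass, with a median of −0.41. Over all tested genes, 17.5% passed as lower and 20.1% as higher in SA.

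In bulk tissue, fewer cells of a type and less RNA per cell cannot be told apart, so class II RNA was set beside markers of leukocytes and of the cell types that usually carry it, within each sample. The sum of H2-Aa, H2-Ab1, H2-Eb1 and Cd74 was 248, 525 and 602 CPM in SA and 774, 502 and 394 CPM in WT. The summed level of 9 leukocyte markers was 139, 238 and 367 CPM in SA and 139, 101 and 91.2 CPM in WT. In both groups the samples with more leukocyte marker RNA had more class II RNA. Class II RNA was 1.79, 2.20 and 1.64 times the leukocyte sum in SA and 5.55, 4.95 and 4.32 times in WT. The groups did not overlap. On the log2 scale the difference was −1.40, or 2.64-fold less class II RNA per leukocyte marker RNA in SA, with means of 0.90 ± 0.219 and 2.30 ± 0.181 (SD, n = 3 each). The exact two-sided permutation test gave p = 0.1, the smallest that 3 against 3 samples allow, and 0.12 after adjustment over 6 ratios. The leukocyte list marks granulocytes too, which usually carry little class II. Granulocyte markers summed to 1634 to 2775 CPM in SA and 86.9 to 154 CPM in WT. Their part in this ratio was not tested. Most of the SA sum came from S100a8, at 582 to 1034 CPM, and S100a9, at 803 to 1368 CPM. Csf3r was at 19.1 to 63.4 CPM in SA and 1.05 to 1.77 CPM in WT. Cxcr2 was at 8.14 to 18.2 CPM in SA and 0.729 to 2.203 CPM in WT. Which cells made the S100a8 and S100a9 RNA was not tested, so this sum is no measure of granulocyte content.

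Against 9 macrophage markers the groups overlapped. The log2 ratio was 0.83, 0.71 and 0.85 in SA and 1.23, 1.08 and 0.55 in WT, a difference of −0.16 (exact two-sided permutation p = 0.5, adjusted over 6 ratios 0.5). This difference was −0.36 without WT 3 and −0.02 without WT 1. Against 11 dendritic cell markers the difference was −2.27 (exact two-sided permutation p = 0.1, adjusted 0.12), and it was −0.39 when Fscn1 was left out of the list. Fscn1, the bundling protein of mature dendritic cells that many tumor cells also make, held 72.9% to 86.2% of that list's sum in SA and 27.4% to 33.4% in WT. Against 8 B cell markers, whose sum was 2.64 to 8 CPM in SA and 1.78 to 3.80 CPM in WT, the difference was −1.21 (exact two-sided permutation p = 0.1, adjusted 0.12).

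Within the pathway, H2-DM RNA was set against H2-O RNA and Ciita against the class II sum. The log2 ratio of H2-DMa, H2-DMb1 and H2-DMb2 together to H2-Oa and H2-Ob together was 3.65, 3.83 and 3.46 in SA and 4.27, 4.99 and 4.92 in WT. All SA tumors lay below all WT penises, by 1.08 in the mean (exact two-sided permutation p = 0.1, adjusted 0.12). The difference was −1.08 without SA 1 and −0.98 without SA 3 (exact two-sided permutation p = 0.2 for each). H2-O RNA in WT rests on few reads, 10, 5 and 5 for H2-Oa and 19, 13 and 5 for H2-Ob. The log2 ratio of Ciita to class II was −5.70, −6.29 and −5.74 in SA and −7.57, −7.02 and −7.56 in WT, again without overlap. This difference of 1.47, or 2.78-fold more Ciita per class II RNA in SA, was computed after its parts had been seen (exact two-sided permutation p = 0.1, adjusted 0.12).

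**Figure D4:**
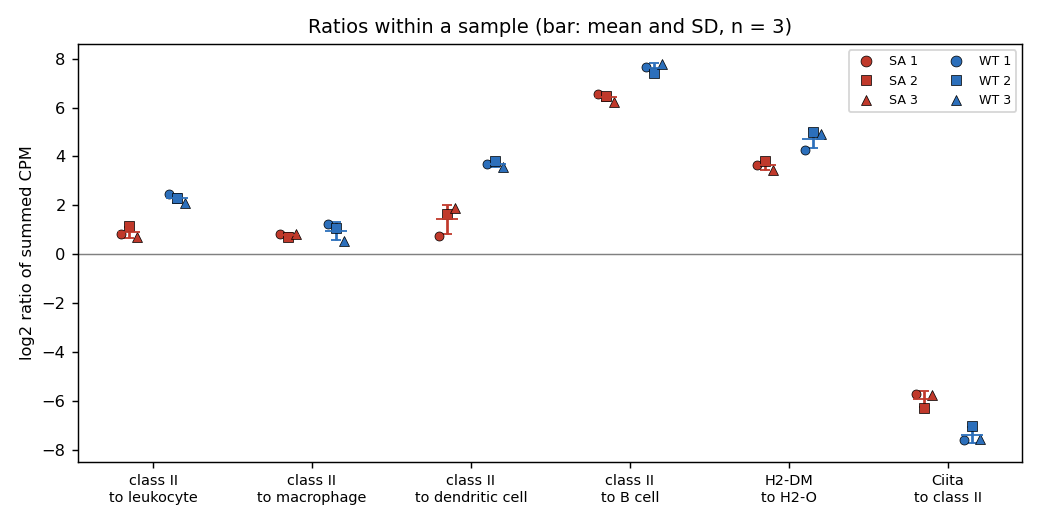
Log2 ratio of summed CPM within each sample for the 6 ratios, with points for the 3 SA tumors and the 3 WT penises and bars for mean and SD. The groups overlap for the ratio to macrophage markers and are apart for the other 5, as for leukocyte markers at 0.90 ± 0.219 in SA and 2.30 ± 0.181 in WT.

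Of 9 transcription factor genes listed for class II, 0 passed the edgeR test in either direction, where 37.6% of all tested genes did. Their median log2 fold change was −0.04. The 3 RFX genes, the 3 NF-Y genes and Creb1, whose products act at the promoter, lay between −0.33 (Nfyc) and 0.21 (Rfxank) on the log2 scale. Every SA tumor was below every WT penis for Nfyc (edgeR adjusted p = 0.0309). For Nfyb (0.17, edgeR adjusted p = 0.22) every SA tumor was above. Of all tested genes, 63.4% had groups without overlap. Spi1 and Irf8, factors of myeloid and B cells, gave 1.05 (edgeR adjusted p = 0.033) and 1.04 (edgeR adjusted p = 0.0473), with overlapping groups. These genes beside Creb1 and Nfya were singled out after their values were seen. Creb1, a factor of the X box region, had a mean of 53.9 ± 7.29 CPM in SA and 59.6 ± 2.65 CPM in WT, and Nfya, an NF-Y subunit, 48.3 ± 7.58 CPM and 49.6 ± 3.62 CPM (SD, n = 3 each).

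Genes of the interferon gamma axis, through which Ciita is induced in many cells, differed in both directions. Of 12 tested, 2 rose, 1 fell and 9 did not pass, where 20.1% of all tested genes rose and 17.5% fell. The median of the 12 was 0.45. The receptor chain Ifngr1 fell, from 173, 160 and 157 CPM in WT to 36.4, 49.1 and 62.6 CPM in SA (log2 fold change −1.72, edgeR adjusted p = 0.000108). The other receptor chain, Ifngr2, rose from 27.5 ± 1.04 CPM to 51.4 ± 3.32 CPM (SD, n = 3 each; log2 fold change 0.90, edgeR adjusted p = 0.000127), and Socs1, an inhibitor of the pathway, gave 1.12. Ifng itself had 0, 0 and 7 counts in SA and 0, 1 and 0 counts in WT. A floor of 3 counts corresponds to 0.0244 to 0.137 CPM, depending on the library.

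In the endosome, where the invariant chain is cut and peptides are made, 13 genes were tested, of which 1 rose, 4 fell and 8 did not pass. The median of their log2 fold changes was 0.48. Over all tested genes, 20.1% rose and 17.5% fell. Cst3, the cathepsin inhibitor cystatin C, gave −0.83, Ifi30, the thiol reductase of the endosome, −0.60, and the lysosomal membrane protein Lamp1 −0.50. March8, a ligase that removes proteins from the cell surface, gave −0.71, and Lamp2, the other lysosomal membrane protein, rose by 0.72. Ctss, the cathepsin that makes the last cuts in the invariant chain, was singled out after its values were seen. It was at 34.1, 64.4 and 81.8 CPM in SA and 33.6, 21.6 and 17.6 CPM in WT, with a log2 fold change of 1.31 that did not pass (edgeR adjusted p = 0.0211).

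On the side of the synapse between presenting cell and T cell, 7 genes were tested, of which 2 rose, 1 fell and 4 did not pass. The shares over all tested genes were 20.1% higher and 17.5% lower. Cd83, a surface protein of mature dendritic cells that stabilizes class II molecules, rose from 1.27, 1.70 and 2.14 CPM in WT to 18.0, 17.9 and 13.0 CPM in SA (log2 fold change 3.25, edgeR adjusted p = 1.6e-05). Cd40, the receptor through which T cells license presenting cells, gave 1.18. Lag3, an inhibitory receptor that binds class II, fell by 1.36 on the log2 scale.

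**Figure D5:**
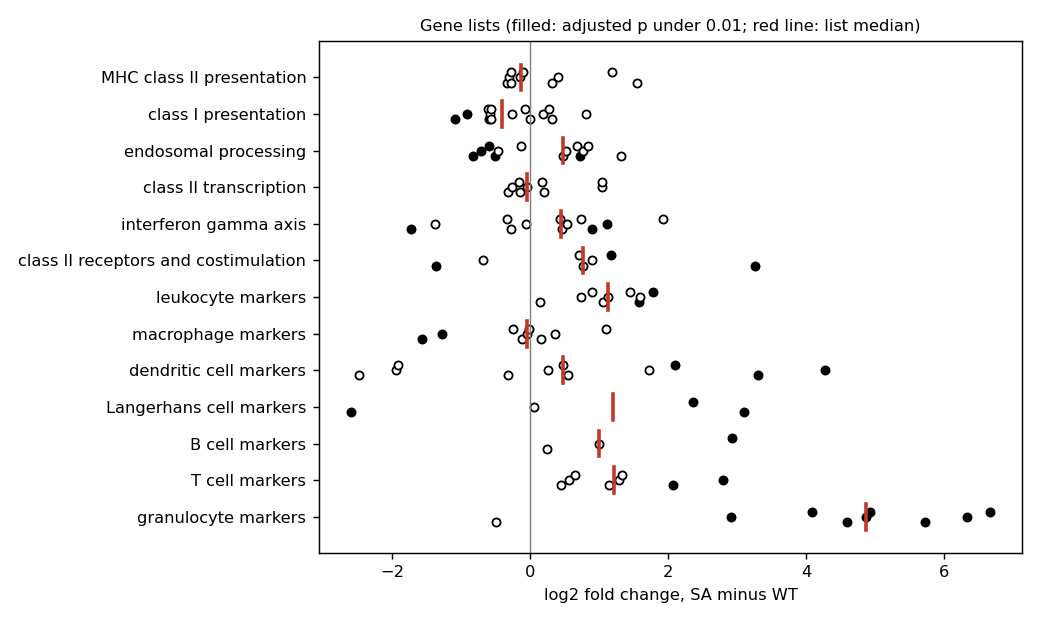
Log2 fold change, SA minus WT, of each tested gene of the lists, filled where the edgeR adjusted p was under 0.01, with a red line at the list median. The class II genes are all open points around a median of −0.12, whereas 8 of 9 granulocyte markers are filled, with a median of 4.86.

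Markers of the cells in the tissue differed between the groups, and their part in the class II values was not tested. For scale, 20.1% of all tested genes passed as higher and 17.5% as lower in SA. Among leukocyte markers the median log2 fold change was 1.13, with Cd53 (1.58) and Cytip (1.78) past the test and 7 of 9 not. Macrophage markers had a median of −0.04, with Cd163 (−1.57) and Mertk (−1.28), markers of resident macrophages, lower. Of 11 dendritic cell markers, with a median of 0.48, 3 rose, Itgax (2.10), Ccr7 (4.28) and Fscn1 (3.31), and 8 did not pass. Among these 8, Clec10a (−2.47, edgeR adjusted p = 0.0155), Siglech (−1.90, edgeR adjusted p = 0.0189) and Cd209a (−1.95, edgeR adjusted p = 0.0304) had every SA tumor below every WT penis, and Flt3 (1.72, edgeR adjusted p = 0.0123) had every SA tumor above. These 4 were named after their values were seen. Of the Langerhans cell list, Cd207, the lectin that defines these cells, fell from 2.28 ± 0.773 CPM to 0.377 ± 0.0489 CPM (SD, n = 3 each), while Epcam (2.35), which epithelial cells also make, and Cd1d1 (3.10) rose. Cd22 (2.93) rose among the 3 B cell markers tested, and 5 others of that list were below the filter. Lck (2.07) and Cd5 (2.79) rose among 8 T cell markers, and the other 6 did not pass and had overlapping groups. Among these 6 were the genes of the CD3 chains, Cd3e (1.34, edgeR adjusted p = 0.0891), Cd3d (1.29, edgeR adjusted p = 0.1035) and Cd3g (1.14, edgeR adjusted p = 0.157).

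The samples also differed in other tissue. Summed markers of squamous epithelium were 23920 to 28920 CPM in SA and 65500 to 73750 CPM in WT, with 6 of 9 lower, and those of smooth muscle and vessel 161 to 331 CPM in SA and 1527 to 1946 CPM in WT, with 5 of 8 lower. The WT tissue is described as penile epithelium and held 586 to 794 CPM of the smooth muscle myosin Myh11, against 3.12 to 36.7 CPM in SA. None of the marker lists held a gene with 0 counts in all 6 samples.

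Smad4 was lower in SA, at 36.1 to 46.1 CPM against 61.2 to 72.5 CPM in WT (log2 fold change −0.77, edgeR adjusted p = 0.00114), and Apc was higher, at 194 to 253 CPM against 62.5 to 91.1 CPM. Counts cover the whole gene and the deleted exons were not counted apart, so the Apc counts are no check of its deletion. Genes that differ among laboratory strains also differed: Pla2g2a had 1253, 1393 and 3977 counts in SA and 3, 1 and 0 counts in WT, and Nnt, Wdfy1 and Glo1 were higher by 1.15, 1.03 and 0.87 on the log2 scale. Of 5 such genes measured, these 4 had enough counts to be tested. All 4 passed, where 37.6% of all tested genes did. H2-Ea-ps, named above, had 1, 0 and 1 reads in SA and 0 reads in each WT penis. Reads were aligned to the C57BL/6 genome, and an effect of other alleles at the H2 locus on the counts of SA tumors was not tested.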

How the data were processed

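Whole tissue RNA from 3 SA tumors and 3 WT penises was sequenced with a stranded protocol. Per the submitters' processing notes and the study's methods, the authors used Tophat to align reads to mm10, checked them with FastQC and counted them with HTSeq, in versions not given in the sources used here. The deposited counts are raw reads per RefSeq transcript, 33068 rows for 24063 symbols, of which 4914 have more than 1 row. The row with the highest mean count stood for its gene, and a read shared by several transcripts counts for each of them. The deposited FPKM values were not used, and the TPM values of the authors, which sum to 1e+06 per sample, were used to order levels between genes. Depth over gene rows was 24466536, 27547073 and 110509147 reads for SA and 25016259, 32871142 and 23828283 reads for WT. A floor of 3 counts was used, which covers the error of counting alone.

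The fit used edgeR 4.0.16 under R 4.3.3: filterByExpr (10 counts at the median library in 3 samples and 15 counts in all), TMM, robust quasi-likelihood F-test and Benjamini-Hochberg adjustment over the 16336 genes left. A test passed with an adjusted p under 0.01. The study used DESeq2, which was an alternative here (1.42.0), as were limma-voom (3.58.1), other scalings, filters and thresholds, a replicate block and leaving out each sample. Ratios of summed CPM were compared by exact permutation over samples.

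Members and lists were chosen with earlier results of these data known. Of a list, the genes past the test were named, or the 2 of highest count where fewer than 2 passed, together with genes between the H2 members on chromosome 17 and the 10 genes most like the members. The files hold no positions, so positions and promoter windows came from RefSeq tables of GRCm38.p6, the same assembly as mm10. Replicate numbers did not pair the samples: deviations from the group means correlated at −0.135, −0.105 and 0.024 for equal numbers.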

Additional observations from a re-analysis of the deposited data

How the results depend on the processing

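No alternative called any of the 10 class II genes lower in SA. The number called higher was 1 with library totals only, 1 with DESeq2, 2 at an adjusted p under 0.05, and 0 to 1 when a sample was left out, with 1 reached without SA 1. Over all tested genes, library totals only called 5248 higher and 1806 lower, where the main edgeR test called 3283 and 2865. Such totals are not given here for DESeq2 or without SA 1. Over the listed pathway and marker genes, 27 were higher and 23 lower in the edgeR test. Library totals only gave 45 higher, and leaving out a sample gave 22 to 42 higher (42 without SA 1) and 15 to 27 lower (15 without WT 1 and 15 without WT 2). That scaling moved the median of all genes from 0.03 to 0.31 on the log2 scale, and the share of higher genes among all calls from 53.4% to 74.4%. Signs turned for log2 fold changes that had not passed the test. With library totals they were 0.15 for H2-Ab1, 0.0223 for H2-Eb1, 0.19 for H2-DMa and 0.0223 for H2-DMb1, and limma-voom gave 0.0174 for H2-DMa. With a sample left out, H2-Ab1 ran from −0.395 to 0.177, H2-Eb1 from −0.510 to 0.0218, H2-DMa from −0.367 to 0.168 and H2-DMb1 from −0.549 to 0.0381, and they were above 0 without SA 1 (all 4, at 0.134, 0.0169, 0.133 and 0.0381) or without WT 1 (the first 3, at 0.177, 0.0218 and 0.168). H2-DMb2 ran from −0.528 to 0.5985 and H2-Ob from −0.319 to 0.947, both lowest without SA 3. Ciita ran from 0.78 to 1.43 when a sample was left out and was past the test in 3 of 16 alternatives, and H2-Oa ran from 1.22 to 2.03 and was past it in 0 of 15. All ratios kept their sign, that to leukocyte markers between −1.52 and −1.31, to macrophage markers between −0.36 (without WT 3) and −0.02 (without WT 1), to dendritic cell markers between −2.50 and −0.39, and to B cell markers between −1.77 (summed transcript rows) and −0.73 (mean of log2 CPM over the list). Replicate numbers did not pair the samples, and with the replicate block the test called 0 class II genes higher and 0 lower, with adjusted p = 0.0717 for Ciita and 0.0747 for H2-Oa in edgeR. A filter at a mean of 50 counts left out H2-Oa and H2-Ob. The causes were not tested.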

Other observations

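Outside the lists, 10 tested genes followed the mean deviation of the class II genes most closely, with Pearson correlations of 0.9958 to 0.9998 over the 6 samples after centring within each group. The 99th percentile over all tested genes was 0.968. These values are descriptions, since the points share libraries. Of these, Aif1, Evi2b and Clec4n are known from myeloid cells or leukocytes. Aif1, a macrophage protein, was at 1.78, 3.64 and 5.97 CPM in SA and 3.75, 2.30 and 1.69 CPM in WT, with overlapping groups. Evi2b, a leukocyte membrane protein, was at 3.16, 5.79 and 9.58 CPM in SA and 3.98, 2.34 and 1.87 CPM in WT. Clec4n, the lectin dectin-2 of myeloid cells, was at 6.35, 11.3 and 14.5 CPM in SA and 2.31, 1.54 and 1.18 CPM in WT, and rose by 2.69 on the log2 scale (edgeR adjusted p = 0.000418). The other 7 were Snord8, Fhad1, Isoc2b, Slc35a2, Leprot, Uap1l1 and Grk5. Of these 7, Fhad1 (log2 fold change −2.14, edgeR adjusted p = 0.000105), Isoc2b (−0.97, edgeR adjusted p = 0.00897), Slc35a2 (−0.85, edgeR adjusted p = 0.000202) and Leprot (−0.58, edgeR adjusted p = 0.00513) passed the test as lower in SA. Snord8, Uap1l1 and Grk5 did not pass, nor did Aif1 and Evi2b. Snord8, the closest at 0.9998, lay at only 0.223 to 0.588 CPM.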
